A study of Mus musculus with 29 samples.

Results

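Mmp, Timp, Adamts and Adamtsl genes were examined in whole-genome methyl-sequencing of mouse lung, in a table that gives the percent DNA methylation (DNAm) of windows overlapping genes. Members were taken as the autosomal windows whose gene name in the table begins with Mmp or Timp and a digit, or with Adamts. They were 779 of 260686 windows and carried 47 gene names, with 462 windows in 19 Adamts genes, 169 in 5 Adamts-like (Adamtsl) genes, 131 in 22 Mmp genes and 17 in Timp2. Neighbouring windows of a gene share its sequence context and the same libraries, so windows are not replicates. Lung DNA came from 29 BALB/c offspring aged 13 weeks in 4 groups, all labelled female. Dams received either saline (Sham) or PM2.5, fine particulate matter, by the nose before mating, in gestation and during weaning, and the offspring were either sensitised and challenged with the egg protein ovalbumin (OVA) to induce allergic airways disease, or given saline instead. This gave 7 Sham and 7 Sham-OVA libraries, with 7 PM and 8 PM-OVA libraries beside them. Each library is labelled as one sample of lung (RML), and which libraries came from littermates is not used here, so p-values measure the spread between these samples.

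Matrix metalloproteinases (MMPs) are zinc-dependent proteases that cut collagens, elastin and other matrix proteins, and the tissue inhibitors of metalloproteinases (TIMPs) block them. ADAMTS proteases are secreted relatives that process procollagens and cleave large proteoglycans such as versican, while the ADAMTS-like proteins share their ancillary domains but have no protease domain. In the airways these proteins are known for matrix turnover, for the passage of leucocytes through tissue and for the remodelling that accompanies allergic disease.

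Stretches of 5 windows on which the results turn are shown with every CpG, the dinucleotide that carries the methylation, in capitals. They are the 200 bases with the most CpGs outside untranslated regions in the 2 Mmp14 windows and the Mmp11 window with the largest rises among MMP genes for OVA in Sham, and in 2 adjoining Mmp28 windows that moved in opposite directions. Sequences were read from the C57BL/6J reference (GRCm38.p6), run 5′ to 3′ in the direction of transcription, and may differ from BALB/c DNA.
Mmp14, chr14:54432231-54432430, plus strand, 619 bases into the gene, with 200 exonic and 0 coding bases, 21 CpGs: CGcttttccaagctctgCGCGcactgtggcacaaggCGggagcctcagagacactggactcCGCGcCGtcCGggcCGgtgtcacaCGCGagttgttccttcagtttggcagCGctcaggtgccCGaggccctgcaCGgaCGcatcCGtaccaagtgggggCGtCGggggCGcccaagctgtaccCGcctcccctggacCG
Mmp14, chr14:54433754-54433953, plus strand, 2142 bases into the gene, intronic, 7 CpGs: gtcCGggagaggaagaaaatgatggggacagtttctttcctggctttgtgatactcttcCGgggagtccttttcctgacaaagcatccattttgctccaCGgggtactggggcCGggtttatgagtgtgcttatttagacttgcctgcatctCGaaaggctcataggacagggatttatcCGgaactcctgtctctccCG
Mmp11, chr10:75931134-75931333, minus strand, intronic, 10 CpGs: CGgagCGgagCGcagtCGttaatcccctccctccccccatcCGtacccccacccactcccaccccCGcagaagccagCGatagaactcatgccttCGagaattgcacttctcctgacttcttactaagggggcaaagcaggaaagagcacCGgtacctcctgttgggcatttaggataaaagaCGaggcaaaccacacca
Mmp28, chr11:83447513-83447712, minus strand, 193 of 200 bases coding, 12 CpGs: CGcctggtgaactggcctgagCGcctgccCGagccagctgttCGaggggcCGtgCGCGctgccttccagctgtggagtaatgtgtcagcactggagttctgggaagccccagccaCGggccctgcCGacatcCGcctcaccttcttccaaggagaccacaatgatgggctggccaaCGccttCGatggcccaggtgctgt
Mmp28, chr11:83444838-83445037, minus strand, all 200 bases coding, 29 CpGs: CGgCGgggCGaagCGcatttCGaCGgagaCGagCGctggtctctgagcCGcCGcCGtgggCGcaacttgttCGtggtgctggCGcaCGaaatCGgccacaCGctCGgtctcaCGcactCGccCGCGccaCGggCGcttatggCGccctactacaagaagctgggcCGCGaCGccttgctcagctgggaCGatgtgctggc

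A window in this table runs over a nearly fixed number of CpG cytosines, so its length follows CpG density. Member windows had a median length of 5155 bp (range 233 to 16564 bp) and 9.81 CpGs per kb, against 4714 bp and 10.7 CpGs per kb over the 251181 autosomal windows. Only 5.39% of member windows held the start of their own gene (all autosomal windows, 12.6%), and 10.1% reached into the 2000 bp before a gene start (all autosomal windows, 22.8%). By the GENCODE annotation, 450 windows held exonic bases of their gene and 329 were intronic throughout. Another gene was overlapped by 52 of the windows. All 779 had a value in every library. The deposited percentages carry neither read counts nor coverage, so their depth is unknown and no counting error can be given.

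The marker lists used to check the tissue label concern methylation only, and expression was not analysed here. In unchallenged lung the window at the gene start had a median DNAm of 54.4% in 10 lung epithelial and endothelial genes, 65.2% in 7 genes of other tissues and 70.2% in 18 leucocyte genes. The lung genes were spread widely. Abca3 (0.43%), Nkx2-1 (1.58%) and Cldn5 (5.15%) were low, and Tie1 (47.0%), Tek (53.0%) and Sftpb (55.8%) lay between. Scgb1a1 (72.0%), Sftpc (72.3%), Sftpa1 (73.4%) and Sftpd (80%) lay above the leucocyte median, so these medians do not settle the tissue label. The library labelled Sham replicate 1 had a value in 1224 of 1230 windows of the Y chromosome, against 29 to 46 in the other 28 libraries, which goes against its label as female. All member windows are autosomal, and without this library 319 instead of 351 windows passed the test for OVA in Sham, 79 of them higher and 240 lower.

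Comparisons between groups ask how the methylation of these genes differed after OVA in offspring of each kind of dam, and whether maternal PM changed it. A difference is given in percentage points of group means, and adjusted p is that of limma's moderated test with Benjamini-Hochberg adjustment over the 259167 windows tested in the whole table. Windows whose adjusted p was under 0.05 and whose group means were at least 10 points apart are called differentially methylated regions (DMRs). The study used this term at an adjusted p under 0.000001 in another test. At that threshold 0 members were DMRs for OVA in Sham or in PM with the test used here.

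After OVA, most member windows that passed the test lost methylation, while others gained it, among them windows in the first part of Mmp14, Timp2 and Adamts10. In Sham offspring 265 of 779 windows fell (34.0%, all tested windows 22.3%) and 86 rose (11%, all tested windows 13.3%), together 351 (45.1%, all tested windows 35.6%). In PM offspring 391 windows fell (50.2%, all tested windows 34.8%) and 55 rose (7.06%, all tested windows 9.26%), together 446 (57.3%, all tested windows 44.1%). Over members the difference had a median of -1.14 points for OVA in Sham and of -1.89 points for OVA in PM, beside -0.41 and -1.03 points over all tested windows. Few differences were large, and 2 members were DMRs for OVA in Sham (0.257%, all tested windows 0.775%), both higher (all tested windows 0.479%) and 0 lower (all tested windows 0.296%). For OVA in PM there were 0 (all tested windows 0.584%, with 0.263% higher and 0.321% lower).

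The balance of rises and falls depended in part on the level of whole libraries. When each library was centred on its median deviation, which moved the median of all tested windows from -0.41 to -0.02 points for OVA in Sham and from -1.03 to -0.05 points for OVA in PM, 118 members rose and 218 fell in Sham, and 111 rose and 247 fell in PM. The rises then made up 35.1% of the members called in Sham and 31% in PM, in place of 24.5% and 12.3%. Over all tested windows 18.3% rose and 17.8% fell in Sham after centring, and 18.9% rose and 18.7% fell in PM. The median over members was still -0.75 and -0.91 points.

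Mean DNAm over the 779 windows ranged from 70.2% to 71.3% in Sham libraries and from 68.9% to 70.7% in Sham-OVA libraries, which overlapped. It ranged from 70.3% to 71.9% in PM and from 68.6% to 70.1% in PM-OVA libraries, which did not. Relative to the mean over all windows of the same library, members stood 1.47 to 1.77 points higher in Sham and 0.82 to 1.27 points higher in Sham-OVA libraries. The same excess was 1.57 to 1.71 points in PM and 0.74 to 1.08 points in PM-OVA libraries, so that OVA and unchallenged libraries did not overlap on this scale in either kind of offspring.

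Marker windows moved with OVA as well. Of 119 windows of the 20 leucocyte genes, 24 were higher (20.2%) and 46 lower (38.7%) in Sham-OVA, and 18 higher (15.1%) and 50 lower (42%) in PM-OVA, beside 13.3%, 22.3%, 9.26% and 34.8% of all tested windows. They held 13 falling and 1 rising DMR in Sham (all tested windows 0.296% and 0.479%) and 11 falling and 1 rising DMR in PM (0.321% and 0.263%). Their mean level was 69.4% to 70.5% in Sham, 67.2% to 68.5% in Sham-OVA, 69.6% to 70.6% in PM and 67.1% to 68.1% in PM-OVA libraries. Of 71 windows of the 12 lung genes, 35 were higher (49.3%) and 1 lower (1.41%) in Sham-OVA, and 26 higher (36.6%) and 9 lower (12.7%) in PM-OVA, with 1 rising DMR in Sham and mean levels of 60.3% to 62.8% in Sham, 63.0% to 65.4% in Sham-OVA, 60.8% to 63.4% in PM and 62.3% to 64.2% in PM-OVA libraries. Of 36 windows of 8 genes of other tissues, 3 were higher (8.33%) and 6 lower (16.7%) in Sham-OVA, and 1 higher (2.78%) and 17 lower (47.2%) in PM-OVA. In bulk tissue a change in the share of a cell type and a change of methylation within cells cannot be told apart, and the part of either in the differences of the metalloproteinase genes was not tested.

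Among the membrane-type MMPs, which are anchored at the cell surface, Mmp14 gave the largest rise of all members in both kinds of offspring. Its 6 windows run from 75 bp before the gene start to past its end, and the 3 at the 5′ end rose in Sham and in PM offspring. The window at 1.35 to 4.36 kb (chr14:54432965-54435969, exonic and intronic bases) had a lowest, median and highest DNAm of 35%, 38% and 42.6% in Sham and 45.0%, 52.8% and 54.0% in Sham-OVA. The same window had 36.5%, 41.6% and 44.4% in PM and 44.4%, 47.7% and 52.8% in PM-OVA. Sham and Sham-OVA libraries did not overlap, and those of PM and PM-OVA met at 44.4%. Its difference was 11.92 points in Sham (adjusted p = 1.92e-06), a DMR, and 7.68 points in PM (adjusted p = 2.33e-04).

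The adjoining CpG-rich Mmp14 window (chr14:54432231-54432964, 68.8 CpGs per kb), whose densest stretch heads the sequences above, rose from a mean of 4.94% ± 1.18 (SD) in Sham to 13.7% ± 3.88 in Sham-OVA. Sham libraries reached 7.17% at most and Sham-OVA libraries began at 7.55%. In PM it rose from 6.31% ± 1.41 to 13.7% ± 1.21, again without overlap (highest PM 8.50%, lowest PM-OVA 11.3%). The adjusted p was 1.96e-07 in Sham and 1.79e-06 in PM. The Mmp14 window at the gene start itself (chr14:54431537-54432225) was nearly unmethylated, at 0.81% ± 0.39 in Sham and 2.98% ± 1.15 in Sham-OVA (adjusted p = 1.04e-04), and at 1.49% ± 0.84 in PM and 2.53% ± 0.90 in PM-OVA (adjusted p = 0.0265). The latter did not pass the threshold without PM replicate 2, 5, 6 or 7 or PM-OVA replicate 7 (adjusted p up to 0.0675). Here the libraries with and without OVA overlapped slightly in Sham and widely in PM. The 3 windows of Mmp14 beyond 4.36 kb differed by -1.13 to 3.07 points and did not pass the test.

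**Figure D1:**
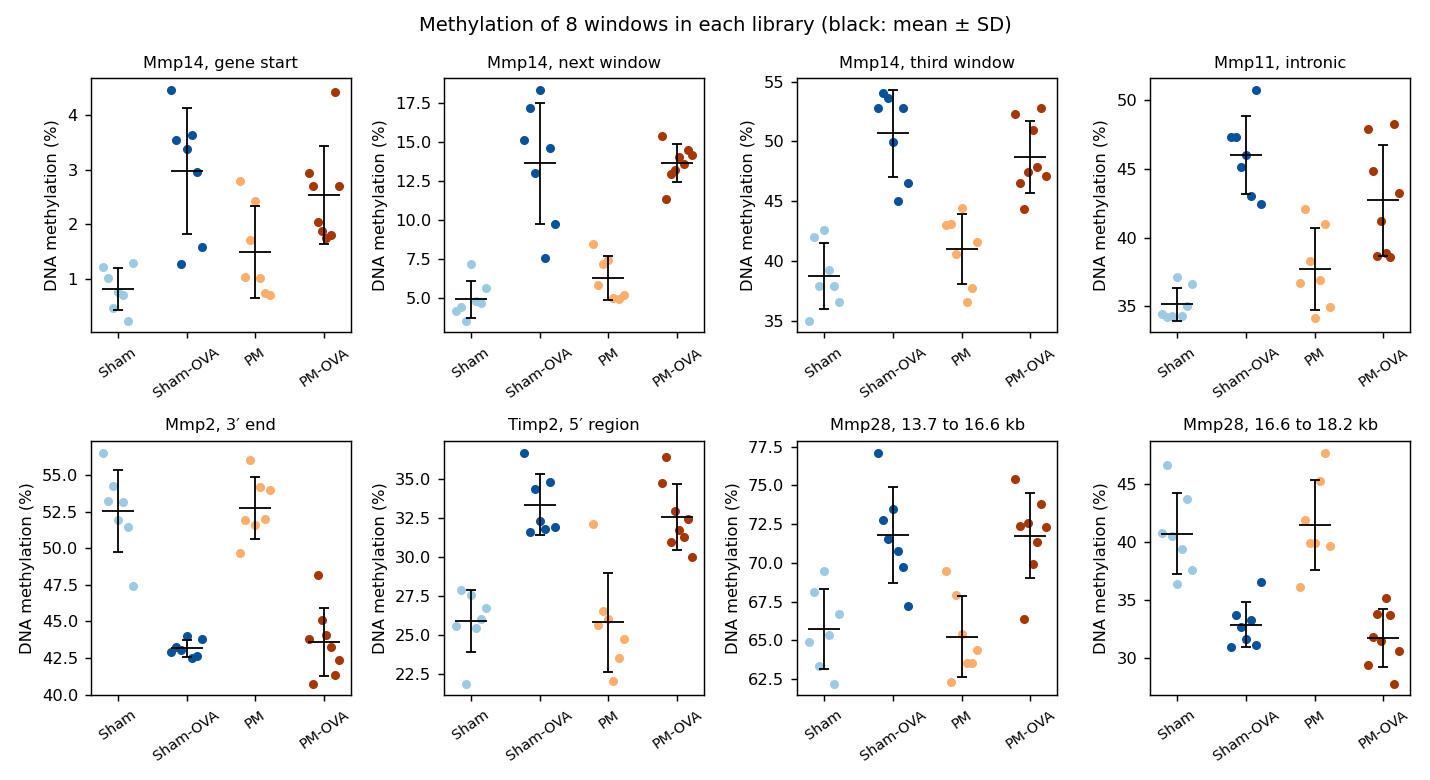
Percent DNA methylation of 8 windows in each library (points), with the mean and SD of each group in black, for Sham, Sham-OVA, PM and PM-OVA. The vertical axes differ between panels and do not start at 0. The 3 Mmp14 windows, the Mmp11 and Timp2 windows and the first Mmp28 window were higher with OVA, and the Mmp2 3′ window and the second Mmp28 window were lower.

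The other membrane-type genes differed among themselves. Mmp16 had 21 of 26 windows lower (80.8%, all tested windows 22.3%) and 1 higher in Sham-OVA, and 20 lower (76.9%, all tested windows 34.8%) and 0 higher in PM-OVA, with median differences of -3.36 and -4.40 points. The Mmp16 windows lie in a gene of 266.3 kb, and its 1 rise was at the gene start, where DNAm went from a mean of 2.29% to 4.51% in Sham (adjusted p = 0.00272) and from 2.86% to 4.33% in PM (adjusted p = 0.0515). Mmp15 had 4 windows higher and 3 lower of 9 in Sham-OVA, Mmp17 had 3 and 2 of 11, Mmp25 had 1 and 1 of 6, and Mmp24 had 0 of 14 in either direction. In PM-OVA Mmp15 had 2 higher and 2 lower, Mmp17 had 0 and 2, Mmp25 had 1 and 2, and Mmp24 had 0 and 2. With libraries centred these PM-OVA counts were 4 and 1 for Mmp15, 3 and 1 for Mmp17, 1 and 1 for Mmp25, and 3 and 1 for Mmp24. Membrane-type genes together had 12 windows higher (16.7%, all tested windows 13.3%) and 27 lower (37.5%, all tested windows 22.3%) of 72 in Sham-OVA. In PM-OVA they had 6 higher (8.33%, all tested windows 9.26%) and 28 lower (38.9%, all tested windows 34.8%). Mmp16 alone gave 21 of the 27 falls in Sham-OVA and 20 of the 28 in PM-OVA. With libraries centred the 72 windows had 14 higher and 24 lower in Sham-OVA (all tested windows 18.3% and 17.8%). In PM-OVA they then had 16 higher and 23 lower (all tested windows 18.9% and 18.7%).

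The 2 gelatinases cut denatured collagen and basement membrane collagen. Mmp2 showed opposite differences at its ends. Just after the gene start (chr8:92827678-92831339), DNAm had a lowest, median and highest value of 38.6%, 40.6% and 44.6% in Sham and 44.3%, 47.8% and 49.3% in Sham-OVA. In PM it was 43.6%, 45.5% and 47.1%, and in PM-OVA 44.6%, 48.6% and 50.7%. The groups overlapped at their edges in Sham and in part of their range in PM, where the median of PM-OVA lay above the highest PM library, with a rise of 5.82 points (adjusted p = 6.02e-05) and of 2.80 points (adjusted p = 0.0233), the latter not past the threshold without PM replicate 4 (adjusted p = 0.0541). At the 3′ end of Mmp2 (chr8:92850213-92854559, which also overlaps the annotated gene Gm45472), DNAm was 47.4%, 53.2% and 56.5% in Sham and 42.5%, 43.0% and 44.0% in Sham-OVA, and 49.7%, 52.0% and 56.1% in PM and 40.7%, 43.5% and 48.2% in PM-OVA. Libraries with and without OVA did not overlap within Sham or within PM offspring, although the highest PM-OVA library lay above the lowest Sham library. The differences of -9.41 points (adjusted p = 5.72e-07) and -9.17 points (adjusted p = 3.25e-07) were close to, but below, the DMR threshold.

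The densest 200 bases of this Mmp2 window begin 173 bases past the annotated gene end, with CpGs in capitals.
Mmp2, chr8:92853593-92853792, plus strand, 9 CpGs: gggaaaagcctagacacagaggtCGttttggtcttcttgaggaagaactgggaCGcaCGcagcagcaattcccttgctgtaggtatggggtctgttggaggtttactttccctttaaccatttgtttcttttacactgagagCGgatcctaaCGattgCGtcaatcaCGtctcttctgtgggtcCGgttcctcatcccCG

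Mmp9, the gelatinase of neutrophils and macrophages, had its gene start in a window (chr2:164939920-164943930) with 46.5%, 49.7% and 52.6% as lowest, median and highest DNAm in Sham and 40.0%, 43.7% and 47.2% in Sham-OVA. It had 46.6%, 48.6% and 52.4% in PM and 42.2%, 43.5% and 45.6% in PM-OVA. The ranges overlapped in Sham and not in PM, and the window changed by -5.88 points (adjusted p = 7.04e-05) and -5.08 points (adjusted p = 1.90e-04). The Mmp2 window at the gene start differed by -1.25 points in Sham (adjusted p = 0.242) and -1.77 points in PM (adjusted p = 0.0712).

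Mmp28, or epilysin, had a falling window directly beside a rising one, both with coding exons and both shown above. The window at 13.7 to 16.6 kb (chr11:83446507-83449328) went from 65.7% ± 2.57 in Sham to 71.8% ± 3.12 in Sham-OVA (adjusted p = 0.00148) and from 65.2% ± 2.60 in PM to 71.8% ± 2.72 in PM-OVA (adjusted p = 4.39e-04). The next window (chr11:83444838-83446506) fell from 40.7% ± 3.49 to 32.9% ± 1.94 in Sham (adjusted p = 2.47e-04) and from 41.5% ± 3.86 to 31.7% ± 2.46 in PM (adjusted p = 7.53e-06). Libraries with and without OVA overlapped in the rising window, overlapped marginally in the falling window in Sham (lowest Sham 36.4%, highest Sham-OVA 36.6%) and did not overlap there in PM. The change of -9.73 points in PM lay just under the DMR threshold.

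**Figure D2:**
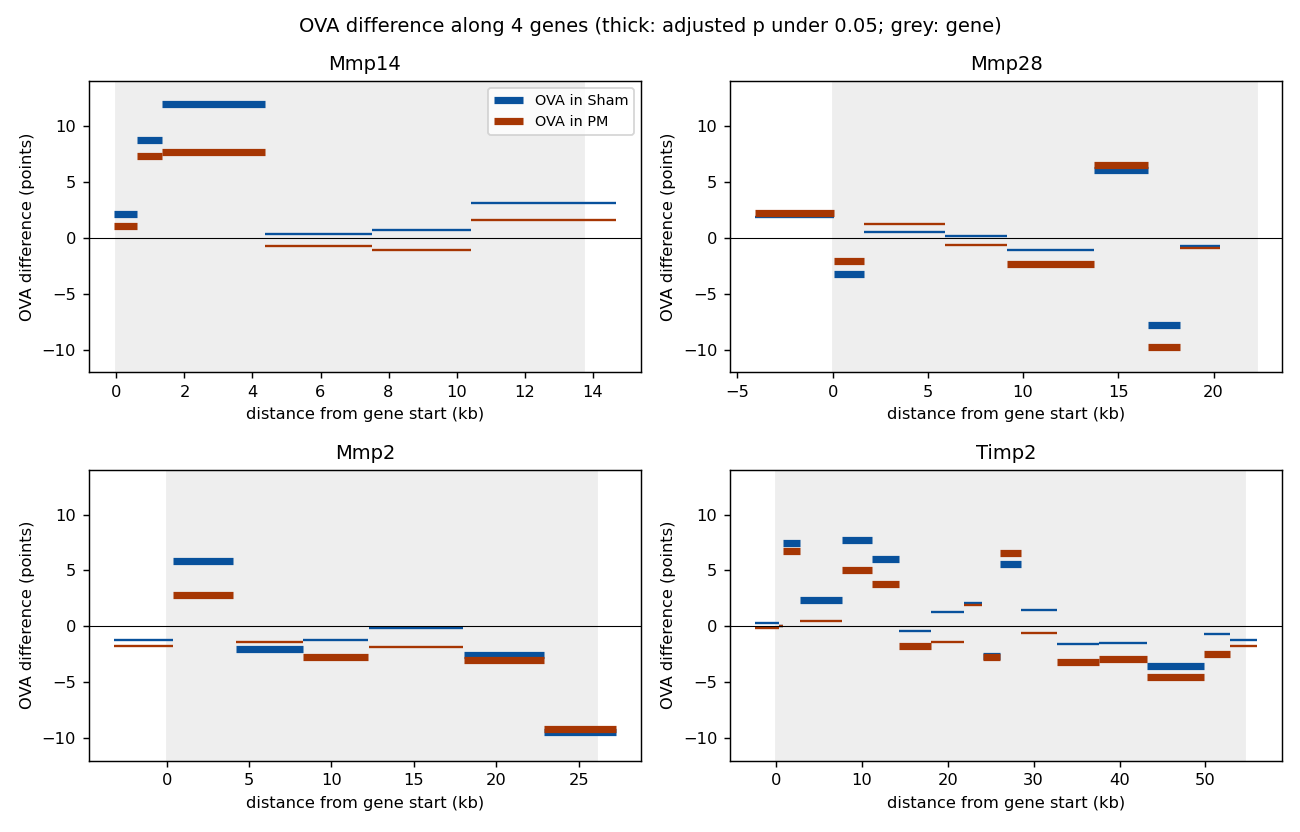
Difference in percent DNA methylation with OVA (percentage points, vertical axis) for each window of Mmp14, Mmp28, Mmp2 and Timp2 against distance from the gene start in kb, in Sham (blue) and PM (brown) offspring. Thick bars passed an adjusted p of 0.05 and grey marks the gene. Rises lie in the first 4.36 kb of Mmp14 and the first part of Mmp2 and Timp2, and falls at the 3′ end of Mmp2.

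Of the stromelysins, Mmp3 and Mmp10 are known to activate other MMPs and to cleave a broad range of matrix proteins, and Mmp11 is grouped with them by name. Mmp11 held the other DMR, in a window at 4.28 to 7.23 kb (chr10:75929264-75932221) that contains no exonic bases. DNAm there was 34.2%, 34.5% and 37.1% (lowest, median, highest) in Sham and 42.5%, 46.0% and 50.7% in Sham-OVA, and 34.1%, 37.0% and 42.1% in PM and 38.6%, 42.3% and 48.3% in PM-OVA. The Sham groups did not overlap and the PM groups did. The rise was 10.85 points in Sham (adjusted p = 3.83e-06) and 4.99 points in PM (adjusted p = 0.00745), and the difference between these rises did not pass the test (adjusted p = 0.589). The Mmp11 window before it, at 14.4% in Sham, rose by 2.52 points (Sham offspring) and 1.88 points (PM offspring), and the window at the Mmp11 gene start changed in PM by -4.10 points (adjusted p = 0.00802).

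Mmp10 lies in a cluster of secreted MMP genes on chromosome 9, which here comprised 27 windows of 10 genes (Mmp1a, Mmp1b, Mmp3, Mmp7, Mmp8, Mmp10, Mmp12, Mmp13, Mmp20 and Mmp27). These windows were CpG-poor, with a median of 5.96 CpGs per kb, and highly methylated in unchallenged lung (69.7% to 93.2%, median 80.3%). Of the 27, 8 were lower and 0 higher in Sham-OVA, and 12 lower and 0 higher in PM-OVA. The lower windows made up 29.6% and 44.4% of the cluster (all tested windows 22.3% and 34.8%). By level in unchallenged lung, 5 of 11 cluster windows at 60% to 80% were lower in Sham-OVA (45.5%, all tested windows 21.1%) and 3 of 16 at 80% or more (18.8%, all tested windows 29.9%), and in PM-OVA 6 of 14 (42.9%, all tested windows 35.3%) and 6 of 13 (46.2%, all tested windows 45.5%). With libraries centred 6 were lower and 1 higher in Sham-OVA and 7 lower and 0 higher in PM-OVA. The Mmp10 window at the gene start (chr9:7498254-7503895) had the smallest adjusted p of all members in PM. Its lowest, median and highest DNAm were 81.7%, 82.5% and 83.7% in Sham, 76.7%, 77.3% and 78.4% in Sham-OVA, 82.0%, 83.1% and 84.8% in PM and 75.1%, 76.6% and 79.4% in PM-OVA. Libraries with and without OVA were fully apart, by -5.33 points (adjusted p = 9.31e-08) and -6.40 points (adjusted p = 2.42e-09).

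Mmp12, the macrophage elastase, differed at its gene start by -1.03 points in Sham (adjusted p = 0.267) and -1.74 points in PM (adjusted p = 0.0389), the latter no longer past the threshold with libraries centred (-0.76 points, adjusted p = 0.404) or in 7 of 29 fits with one library left out (adjusted p up to 0.0978). The collagenases, which cut fibrillar collagen, had 3 of 10 windows lower in Sham-OVA (30%) and 4 lower in PM-OVA (40%), and 0 higher in either. At their median level of 83.8% in unchallenged lung this is near the 29.9% and 45.5% of all tested windows at 80% or more. Mmp1b fell at its gene start from 88.7% to 86.3% in Sham (adjusted p = 0.00339) and from 89.3% to 86.1% in PM (adjusted p = 8.48e-05). Mmp1a differed there by 0.23 points in Sham (adjusted p = 0.810), with the opposite sign without Sham replicate 1 or Sham-OVA replicate 4 or 7, and by -1.84 points in PM (adjusted p = 0.0513, 0.0328 to 0.127 with one library left out). Mmp23 was the MMP gene with all of its windows higher in both kinds of offspring, 2 of 2, with rises of 5.38 and 1.53 points for OVA in Sham and 5.00 and 1.34 points for OVA in PM.

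Among the inhibitors, only windows named for Timp2 are members. Timp2, which blocks MMPs and also takes part in the activation of MMP2 on the cell surface, had 5 windows higher (29.4%, all tested windows 13.3%) and 2 lower (11.8%, all tested windows 22.3%) of 17 in Sham-OVA, and 4 higher (23.5%, all tested windows 9.26%) and 6 lower (35.3%, all tested windows 34.8%) in PM-OVA. The median over Timp2 windows was 0.33 points for OVA in Sham and -0.62 points for OVA in PM, and the latter turned to 0.36 points with libraries centred. The CpG-dense window 331 bases after the gene start (116.6 CpGs per kb) was at 0.11% in Sham and 0.18% in Sham-OVA (adjusted p = 0.379). The window next to it (chr11:118352929-118354980) had a lowest, median and highest DNAm of 21.9%, 26.0% and 27.9% in Sham, 31.6%, 32.3% and 36.7% in Sham-OVA, 22%, 25.6% and 32.1% in PM and 30.0%, 32.1% and 36.4% in PM-OVA. It rose by 7.49 points without overlap in Sham (adjusted p = 3.45e-05) and by 6.76 points with overlap in PM (adjusted p = 4.76e-05).

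Further into Timp2, the intronic window at 7.64 to 11.2 kb (chr11:118344565-118348101) rose by 7.72 points in Sham (adjusted p = 1.08e-04) and by 5.03 points in PM (adjusted p = 0.00413), and the window at 26.1 to 28.5 kb rose by 5.54 and 6.55 points (adjusted p = 4.91e-04 and 2.84e-05). Near the 3′ end (chr11:118305854-118312515) DNAm fell from 88.1% ± 0.58 to 84.6% ± 1.08 in Sham (adjusted p = 1.29e-04) and from 88.3% ± 1.40 to 83.9% ± 1.68 in PM (adjusted p = 2.89e-06). The window across the Timp2 gene start was at 42.3% ± 0.84 in Sham and 42.6% ± 0.99 in Sham-OVA, and did not pass the test in either kind of offspring.

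Timp3, Timp4 and Mmp19 lie in windows that the table names for an overlapping gene (Syn3, Syn2 and Gm47093), so they are not members and were looked up by position. The window at the Timp3 gene start was at 23.9% in Sham, 24.3% in Sham-OVA, 23.2% in PM and 23.0% in PM-OVA (adjusted p = 0.712 and 0.864). At the Timp4 gene start it was at 64.0%, 66.7%, 65.6% and 66.4% in the same order, a rise in Sham (adjusted p = 0.00786) and no call in PM (adjusted p = 0.400).

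The proteoglycanases of the ADAMTS family cleave aggrecan and versican. Of 122 windows of these 7 genes, 22 were higher (18.03%, all tested windows 13.3%) and 36 lower (29.5%, all tested windows 22.3%) in Sham-OVA, and 16 higher (13.1%, all tested windows 9.26%) and 55 lower (45.1%, all tested windows 34.8%) in PM-OVA. With libraries centred 26 were higher and 29 lower in Sham-OVA, and 30 higher and 33 lower in PM-OVA. At the gene start, Adamts1 was at 0.73% ± 0.53 in Sham and 1.05% ± 0.28 in Sham-OVA (adjusted p = 0.148), and at 0.66% ± 0.43 in PM and 1.02% ± 0.31 in PM-OVA (adjusted p = 0.105). Adamts8 fell there from 18.3% ± 0.40 to 16.6% ± 0.58 in Sham (adjusted p = 0.0122) and from 17.9% ± 1.21 to 16.5% ± 1.20 in PM (adjusted p = 0.0269), and neither passed with libraries centred (adjusted p = 0.0750 and 0.570), nor did the latter in 5 of 29 fits with one library left out (up to 0.0620). Adamts5 differed there by -1.26 points in Sham (adjusted p = 0.161) and by -1.70 points in PM (adjusted p = 0.0398), the latter not past the threshold with the replicate block (adjusted p = 0.0947) or with libraries centred (adjusted p = 0.914), nor in 8 of 29 fits with one library left out (up to 0.0885). Over the 4 Adamts4 windows the median difference was -0.62 points for OVA in Sham and 0.16 points for OVA in PM.

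Adamts20, with 50 windows one of the 3 longest sets, had 5 windows higher (10%) and 13 lower (26%) in Sham-OVA and 2 higher (4%) and 24 lower (48%) in PM-OVA. Adamts9 had 9 higher (25%) and 17 lower (47.2%) of 36 in Sham-OVA, and 6 higher (16.7%) and 20 lower (55.6%) in PM-OVA. Of all tested windows 13.3% were higher and 22.3% lower in Sham-OVA, and 9.26% higher and 34.8% lower in PM-OVA. With libraries centred Adamts20 had 6 higher and 12 lower in Sham-OVA, and 7 higher and 9 lower in PM-OVA. Adamts9 then had 10 higher and 13 lower in Sham-OVA, and 9 higher and 17 lower in PM-OVA.

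The procollagen N-proteinases Adamts2, Adamts3 and Adamts14 trim the ends of fibrillar procollagens. An intronic Adamts2 window (chr11:50619092-50622703) had the largest rise of the Adamts genes in Sham, from a lowest, median and highest DNAm of 51.5%, 53.8% and 61.6% in Sham to 56.8%, 65.7% and 68.4% in Sham-OVA, and from 54.8%, 58.9% and 61.4% in PM to 59.8%, 63.5% and 68.0% in PM-OVA. The groups overlapped in both kinds of offspring, and the rise was 8.89 points (adjusted p = 1.16e-04) and 4.44 points (adjusted p = 0.0231), the latter not past the threshold without PM replicate 6 or PM-OVA replicate 1 (adjusted p up to 0.0588). Adamts14 held the largest fall of the Adamts genes in Sham, in an exonic window (chr10:61199107-61202496) at 65.2%, 66.5% and 66.9% in Sham and 56.2%, 58.9% and 63.0% in Sham-OVA, and at 65.6%, 67.4% and 69.3% in PM and 56.6%, 57.9% and 63.8% in PM-OVA. These groups did not overlap, and the changes were -7.06 points (adjusted p = 6.16e-06) and -8.16 points (adjusted p = 2.95e-07).

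Among windows that hold a gene start, that of Adamts3 was the least methylated in unchallenged lung. It was at 0% to 0.33% in Sham and 0.11% to 2.39% in Sham-OVA, and at 0% to 0.47% in PM and 0.31% to 1.43% in PM-OVA, with overlap in both. The means rose from 0.15% to 1.36% (adjusted p = 8.90e-05) and from 0.11% to 0.69% (adjusted p = 0.0057), the latter not past the threshold on the percent scale (adjusted p = 0.144).

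Of the remaining Adamts genes, Adamts17 had the largest fall in PM. Its intronic window (chr7:66864331-66867598) was at 74.7%, 79.0% and 81.9% (lowest, median, highest) in Sham and 69.1%, 73.7% and 77.1% in Sham-OVA, and at 78.7%, 81.1% and 84.2% in PM and 68.5%, 73.2% and 74.5% in PM-OVA. The groups overlapped in Sham and not in PM, with changes of -5.95 points (adjusted p = 2.85e-04) and -8.64 points (adjusted p = 7.90e-07). Over its 65 windows Adamts17 had 6 higher (9.23%, all tested windows 13.3%) and 31 lower (47.7%, all tested windows 22.3%) in Sham-OVA, and 1 higher (1.54%, all tested windows 9.26%) and 40 lower (61.5%, all tested windows 34.8%) in PM-OVA. Adamts18 had the largest rise in PM, in an exonic window 3.11 kb from the gene start (chr8:113844013-113847242) that went from 39.1% ± 3.15 to 46.7% ± 2.25 in Sham (adjusted p = 1.87e-05) and from 40.5% ± 1.3 to 47.1% ± 2.00 in PM (adjusted p = 5.53e-05).

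Member windows of Adamts10 and Adamts7 are also given, chosen after their values were seen. The Adamts10 window behind the gene start (chr17:33524362-33528877) rose from 49.1% ± 1.33 to 57.6% ± 2.44 in Sham and from 51.3% ± 1.89 to 57.3% ± 1.88 in PM, without overlap (adjusted p = 7.64e-07 and 3.80e-05). An exonic Adamts7 window (chr9:90170247-90172972) fell from 88.2% ± 1.07 to 81.5% ± 1.52 in Sham and from 88.3% ± 0.70 to 80.2% ± 2.54 in PM, also without overlap (adjusted p = 1.90e-07 and 6.44e-09). Adamts7 and Adamts12, which cleave cartilage oligomeric matrix protein, had 0 of 55 windows higher and 22 lower (40%) in Sham-OVA, and 0 higher and 38 lower (69.1%) in PM-OVA. Their median level in unchallenged lung was 81.6%, and of all tested windows at 80% or more 29.9% and 45.5% were lower (at any level, 22.3% and 34.8%). With libraries centred 1 window was higher and 19 lower in Sham-OVA, and 2 were higher and 24 lower in PM-OVA.

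The Adamts-like genes, several of whose products bind fibrillin microfibrils, had 9 windows higher (5.33%, all tested windows 13.3%) and 67 lower (39.6%, all tested windows 22.3%) of 169 in Sham-OVA, and 7 higher (4.14%, all tested windows 9.26%) and 104 lower (61.5%, all tested windows 34.8%) in PM-OVA. Adamtsl1, with 104 windows the longest set, had 3 higher (2.88%) and 46 lower (44.2%) in Sham-OVA and 1 higher (0.962%) and 76 lower (73.1%) in PM-OVA. With libraries centred the Adamts-like genes had 14 higher and 55 lower in Sham-OVA, and 13 higher and 66 lower in PM-OVA. Adamtsl1 then had 4 higher and 39 lower in Sham-OVA, and 3 higher and 51 lower in PM-OVA. The largest Adamtsl1 fall for OVA in Sham (chr4:85923973-85930471) was from 85.1%, 86.9% and 89.9% (lowest, median, highest) in Sham to 78.2%, 81.5% and 84.4% in Sham-OVA. The same window went from 83.5%, 86.9% and 87.9% in PM to 79.5%, 80.7% and 83.3% in PM-OVA. These groups did not overlap, and the changes were -5.46 points (adjusted p = 1.47e-05) and -5.36 points (adjusted p = 1.06e-05). The 1 Adamtsl1 window that rose in PM (chr4:86030677-86036025) rose by 3.85 points there (adjusted p = 0.00974) and by 3.73 points in Sham (adjusted p = 0.0177), the latter 2.81 points and not past the threshold without Sham-OVA replicate 4 (adjusted p = 0.0537). The window at the Adamtsl1 gene start, which the table names for Sh3gl2 and which is no member, went from 2.32% to 5.32% in Sham (adjusted p = 3.41e-05) and from 2.12% to 5.63% in PM (adjusted p = 1.34e-06).

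Adamtsl3 held the largest Adamts-like fall in PM, in an exonic window (chr7:82528820-82533299) that went from 87.1% ± 0.71 to 81.0% ± 1.47, and from 86.7% ± 1.10 to 81.9% ± 1.52 in Sham, with no overlap (adjusted p = 2.18e-08 and 1.93e-06). Adamtsl5 gave the largest Adamts-like rise in Sham. Its exonic window (chr10:80340728-80341905) went from 38.9% ± 3.22 to 46.1% ± 3.87 in Sham (adjusted p = 0.00161), and was at 42.8% ± 1.85 in PM and 43.5% ± 3.95 in PM-OVA (adjusted p = 0.790), with overlap in both. The difference between these OVA differences was -6.57 points and did not pass the test (adjusted p = 0.589).

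**Figure D3:**
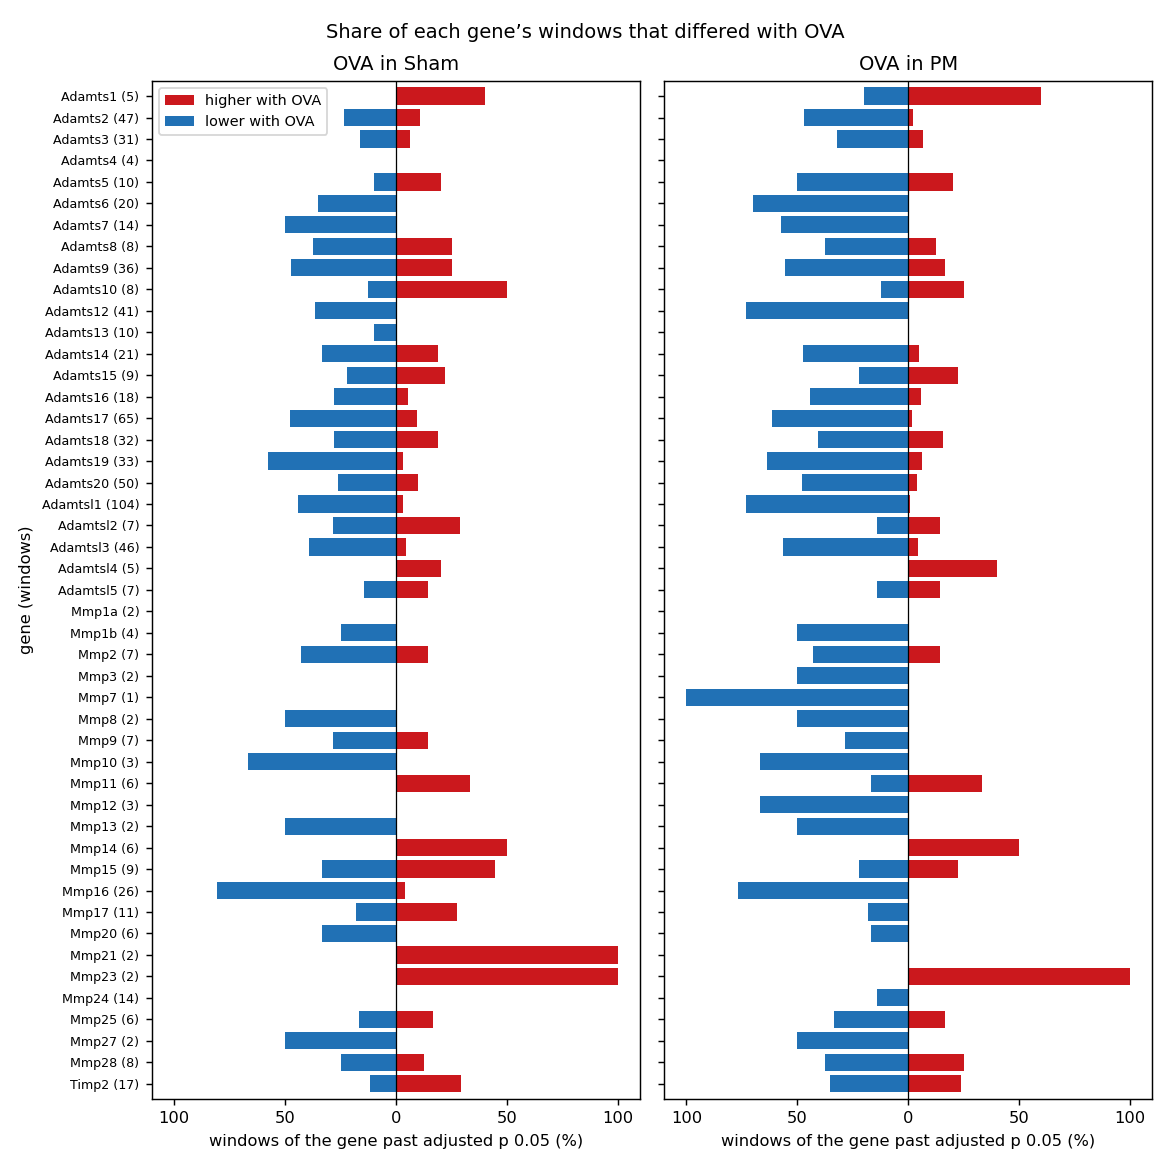
Share of each gene's windows (percent of the number in brackets) that were higher (red, to the right) or lower (blue, to the left) with OVA at an adjusted p under 0.05, in Sham (left panel) and PM (right panel) offspring. Mmp14, Mmp23 and Adamtsl4 had rises only in both panels, while Mmp16, Adamts12 and Adamtsl1 were dominated by falls.

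Most genes with calls had both directions among their windows. The same share over all genes was not computed, and genes with many windows have more occasions to show both. In Sham offspring 6 genes had windows higher only, 10 lower only, 25 both and 6 none, and in PM offspring 3 genes had windows higher only, 16 lower only, 24 both and 4 none. Of the members, 669 (85.9%) had the same sign of OVA difference in Sham and PM offspring, beside 81.8% of all tested windows, and the 286 called in both all had the same sign, as did 99.93% of all tested windows called in both. The 2 comparisons share no libraries, although windows of a gene share context, and Pearson's r of the differences across windows was 0.879 for members and for all tested windows alike.

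**Figure D4:**
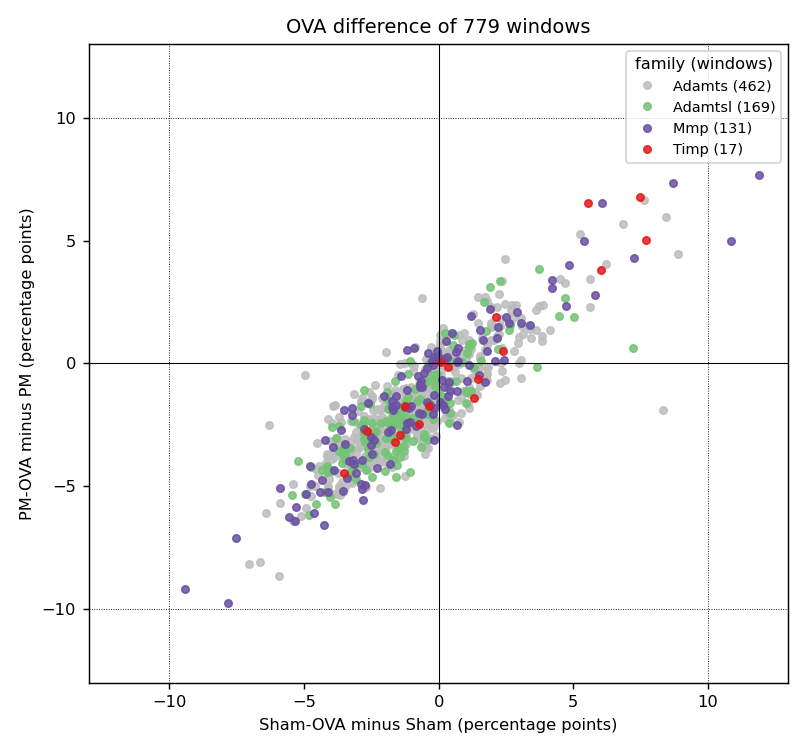
Difference with OVA in Sham offspring (horizontal) against that in PM offspring (vertical), both in percentage points, for the 779 member windows coloured by family, with dotted lines at 10 points. Points lie along the diagonal, and the 2 windows beyond 10 points to the right are those of Mmp14 and Mmp11.

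At the lowest and highest levels, direction went with the level of a window in the unchallenged lung. To keep the level apart from the comparison, windows were binned by the mean of PM libraries for OVA in Sham and of Sham libraries for OVA in PM, a grouping added after the data were seen. Of 54 members below 20% DNAm, 28 were higher (51.9%) and 2 lower in Sham-OVA, where 20.1% of all tested windows at that level were higher. Of 309 members at 80% or more, 167 were lower (54.0%) and 5 higher, where 29.9% of all tested windows were lower. In PM offspring 27 of 54 members below 20% were higher (50%, all tested windows 17.6%), and 218 of 296 at 80% or more were lower (73.6%, all tested windows 45.5%). Of members at 20% to 60%, 26.8% were higher and 16.9% lower in Sham-OVA (all tested windows 25.7% and 12.4%), and 20% were higher and 24.3% lower in PM-OVA (all tested windows 20.8% and 16.9%). Of members at 60% to 80%, 9.86% were higher and 24.3% lower in Sham-OVA (all tested windows 14.4% and 21.1%), and 3.9% were higher and 42.9% lower in PM-OVA (all tested windows 9.31% and 35.3%). With libraries centred, 29 of the 54 low members were higher in Sham-OVA (53.7%, all tested windows 23.9%) and 33 of 54 in PM-OVA (61.1%, all tested windows 26.8%). Of the high members, 149 of 309 were then lower in Sham-OVA (48.2%, all tested windows 25.4%) and 163 of 296 in PM-OVA (55.1%, all tested windows 29.5%).

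Windows at gene starts differed by level too, chiefly at the low end. The 42 members with the start of their gene ranged from nearly 0% in Adamts3, Mmp17 and Adamts7 to over 80% in Mmp1a, Mmp10 and Mmp1b. Unlike in the bins above, the level here is the mean of Sham and PM libraries, which also enter the OVA comparisons. This holds for members and for all tested gene start windows, and near 0% there is little room for a fall. In unchallenged lung 18 were below 10%, with a median of 70.4 CpGs per kb, and of these 10 were higher (55.6%) and 0 lower in Sham-OVA, and 9 higher (50%) and 0 lower in PM-OVA, where 14.1% and 12.1% of all tested gene start windows at that level were higher. At 10% to 60% lay 12 windows, 0 higher and 2 lower (16.7%) in Sham-OVA and 2 higher (16.7%) and 5 lower (41.7%) in PM-OVA, where 17.3% of all tested gene start windows were higher and 10.8% lower in Sham-OVA, and 12.6% higher and 15.4% lower in PM-OVA. At 60% or more lay another 12, with a median of 6.65 CpGs per kb, of which 1 was higher and 2 lower (16.7%) in Sham-OVA, and 0 higher and 4 lower (33.3%) in PM-OVA, below the 28.1% and 47.3% lower among all tested gene start windows at that level. Mmp17 was at 0.24% in Sham and 0.33% in Sham-OVA, and Adamts7 at 0.32% and 0.37%, and neither passed the test in either kind of offspring.

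**Figure D5:**
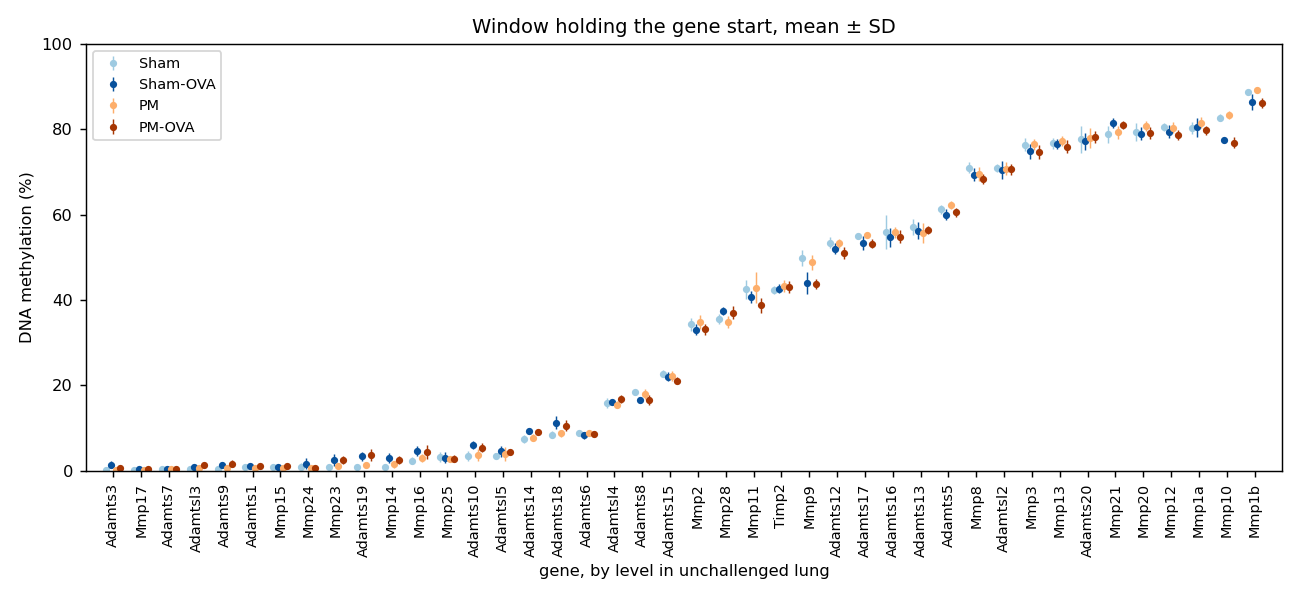
Mean percent DNA methylation and SD of the window that holds the gene start, for 42 genes ordered by level in unchallenged lung (horizontal), in Sham, Sham-OVA, PM and PM-OVA. Mmp9 and Mmp10 were lower with OVA, and several genes below 10%, among them Mmp14 and Adamts19, were higher.

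As a pair of examples, the 250 bases before the RefSeq start are shown for Mmp14, whose gene start window was at about 1%, and for Mmp10, at over 80%, with CpGs in capitals. The Mmp14 window begins at chr14:54431537, so most of the Mmp14 stretch lies before it and its level there is not given. The Mmp10 stretch lies within the Mmp10 window.
Mmp14, chr14:54431348-54431597, plus strand, 10 CpGs: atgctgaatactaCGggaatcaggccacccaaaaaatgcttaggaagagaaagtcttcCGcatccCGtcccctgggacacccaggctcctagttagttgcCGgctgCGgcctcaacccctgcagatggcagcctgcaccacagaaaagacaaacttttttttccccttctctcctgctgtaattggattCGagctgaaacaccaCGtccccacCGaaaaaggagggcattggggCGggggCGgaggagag
Mmp10, chr9:7502092-7502341, plus strand, 1 CpG: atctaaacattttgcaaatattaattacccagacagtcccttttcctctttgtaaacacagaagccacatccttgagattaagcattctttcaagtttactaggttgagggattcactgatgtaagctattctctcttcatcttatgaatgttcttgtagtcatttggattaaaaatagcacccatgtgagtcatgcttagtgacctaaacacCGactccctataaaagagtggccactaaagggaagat

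RefSeq promoters (250 bases before to 50 after a start, GRCm38.p6) were found for 33 of the 47 genes, 36 promoters in all. They held a median of 23 CpGs in genes whose start window was below 10% and 1.5 in those at 60% or more, against 7 over 32851 promoters. The ranges overlapped, at 10 to 46 CpGs below 10% and 0 to 41 CpGs at 60% or more, where Adamts20 had 41. The AP-1 letters TGANTCA, which read the same on both strands, occurred in 8 of the 36 (22.2%) and in 7.81% of all promoters. The 8 genes were Mmp1a, Mmp1b, Mmp3, Mmp7, Mmp10, Mmp12, Mmp13 and Mmp20, all of the chromosome 9 cluster. The match is a description of these letters only.

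Maternal PM alone was compared within unchallenged and within OVA offspring. For PM without OVA 0 of 779 windows passed an adjusted p of 0.05 (all tested windows 0%), 0 were DMRs and 40 had an unadjusted p under 0.05 (5.13%, all tested windows 5.79%), with limma's test. The smallest p belonged to the Mmp2 window just after the gene start, at a mean of 41.2% ± 2.25 in Sham and 45.4% ± 1.31 in PM (adjusted p = 0.696). For PM with OVA 0 passed (all tested windows 0%) and 63 had an unadjusted p under 0.05 (8.09%, all tested windows 5.96%). The smallest p was in an intronic Adamts2 window (chr11:50737521-50742666), at 65.1% ± 1.96 in Sham-OVA and 62.2% ± 1.01 in PM-OVA (adjusted p = 0.786).

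For the interaction, which takes the OVA difference of Sham from that of PM offspring, 0 windows passed (all tested windows 0%) and 58 had an unadjusted p under 0.05 (7.45%, all tested windows 7.4%). The smallest p was in an exonic Adamts16 window (chr13:70747501-70758497) with -2.19 points after OVA in Sham offspring and -5.08 points in PM offspring (adjusted p = 0.554). The counts of 265 and 391 windows lower with OVA in Sham and PM therefore stand without a window whose difference between them passed the test.

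The proteins with which these genes work gave a further 578 windows in 36 genes (inhibitors such as Reck, activators such as Furin and Plau, ADAM proteases, and substrates such as Vcan and Fn1). Of these, 77 were higher (13.3%, all tested windows 13.3%) and 215 lower (37.2%, all tested windows 22.3%) in Sham-OVA, and 53 higher (9.17%, all tested windows 9.26%) and 301 lower (52.1%, all tested windows 34.8%) in PM-OVA, with median differences of -1.02 and -2.01 points. DMRs made up 6 windows in Sham (1.04%, all tested windows 0.775%) and 5 in PM (0.865%, all tested windows 0.584%), in 4 of these genes. Adam19, a membrane-bound metalloproteinase, had a DMR of -14.12 points in Sham (adjusted p = 3.49e-09) and -16.32 points in PM (adjusted p = 3.07e-10) and another of 11.20 and 11.05 points. Pcolce, the enhancer of procollagen C-proteinase, rose by 14.17 points in Sham (adjusted p = 2.44e-06) and 11.18 points in PM (adjusted p = 3.04e-05). Cd44, the hyaluronan receptor, had 2 falling DMRs in each kind of offspring, of -10.10 to -10.26 points, and Sdc4, a cell surface proteoglycan, had 1 rising DMR in Sham (10.71 points, adjusted p = 3.74e-05).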

How the data were processed

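Lung DNA of 29 libraries was spiked by the authors with unmethylated lambda DNA, converted with NEBNext Enzymatic Methyl-seq, trimmed with Trim Galore, and mapped to GRCm38 and called with the DRAGEN methylation pipeline. The deposited values are a percent DNAm per window and library, which the authors obtained in SeqMonk from windows of a fixed CpG number and kept where an Ensembl gene overlapped. Without counts or coverage, depth is unknown, no count model was used, and precision rests on the number of libraries.

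Windows with at least 3 values in each group (259167) were tested on log2 of (percent + 1) over (101 - percent) with limma 3.58.1 in R 4.3.3, in one 4-group fit, 2-sided, with Benjamini-Hochberg adjustment over all of them. The covariates in the study were treatment group and library size, the latter not used here. Its minimum difference of 10 points was kept, and its p threshold of 0.000001 served as an alternative. Annotation was GENCODE M21 with Python 3.11.15. Named windows were DMRs, the largest rise and fall per family and OVA comparison, the smallest p elsewhere, gene starts of 11 set genes and of the 3 lowest and 3 highest, and the 3 genes with most windows. No DMR fell, so the Mmp2 sequence is that of the largest fall for OVA in Sham. The largest fall for OVA in PM was in the falling Mmp28 window, whose sequence is also shown. One of these gene start windows is not reported here. Members, lists and rules were chosen with earlier results of these data known. On simulated data for OVA in Sham over 259167 windows, 199 of 200 changed windows were recovered and 0 unchanged ones called. The size of the change given to the 200 windows is not stated here. Recovery of differences as small as the median over members was not tested.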

Additional observations from a re-analysis of the deposited data

Results flagged for a closer look

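In 128 groups of 7 or 8 values for the named windows, 16 held a highest or lowest library far from the rest by Dixon's criterion, which chance gives in about 1 group in 20. Several lay in gene start windows near 0%. In the Mmp17 window the highest library was Sham replicate 1 (0.971%), Sham-OVA replicate 3 (1.34%), PM replicate 5 (0.652%) and PM-OVA replicate 3 (1.57%) of its group. In the Adamts7 window it was Sham replicate 7 (1.34%) and PM-OVA replicate 6 (1.59%), in the Adamts3 window PM replicate 5 (0.471%), and in the Mmp14 window PM-OVA replicate 7 (4.42%). The Adamts1 window had PM-OVA replicate 4 lowest (0.358%).

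Among windows with more methylation, Adamts8 had Sham-OVA replicate 7 highest at its gene start (17.8%), Mmp9 had PM replicate 6 highest (52.4%), and Timp2 had PM replicate 3 lowest at its gene start (40.3%) and Sham replicate 3 lowest in the rising 5′ window (21.9%). Adamtsl1 had PM replicate 4 lowest in its falling window (83.5%) and Sham-OVA replicate 4 highest in its rising window (81.8%). The intronic Adamts2 window with the smallest p for PM with OVA had PM-OVA replicate 5 lowest (60.1%).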

How the results depend on the processing

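Counts of members past the thresholds, both directions together, stayed within 1.5 times of the values reported for both OVA comparisons with offsets of 0.5 and 5 points, on the percent scale, with libraries centred, with a trended robust prior, over complete windows and over the 727 members that overlap no other gene. By direction, centring took the members higher in PM from 55 to 111 and those lower from 391 to 247. At an adjusted p under 0.000001, 9 windows passed for OVA in Sham (2 higher, 7 lower) and 26 for OVA in PM (1 higher, 25 lower), and 0 DMRs in Sham. With a minimum difference of 5 points there were 40 DMRs in Sham (21 higher, 19 lower) and 53 in PM (10 higher, 43 lower). Leaving out one library at a time gave 307 to 357 windows and 2 to 3 DMRs for OVA in Sham, and 416 to 458 windows and 0 to 1 DMR for OVA in PM. The added DMRs were the Mmp2 3′ window without Sham replicate 7, the intronic Adamts2 window without Sham-OVA replicate 7, and in PM the falling Mmp28 window without PM replicate 1 or 7, or PM-OVA replicate 3, 5 or 6. For the comparisons of PM and the interaction the count was 0 throughout. The titles' replicate numbers did not meet the criterion for pairing, a correlation over 0.1 in every pair (-0.0409 to 0.104), although the own number was best in 29 of 84 choices, where 11.6 would be so if all were equally likely. Library names carry another number, or none, in 10 libraries, and by them the correlation was -0.0283 to 0.104 and the own number best in 22 of 72 choices (10.7 if equally likely). A fit with the number as a replicate block called 352 and 426 windows.

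Of 67 comparisons of named windows, few changed sign, and none of these was past the threshold. The Timp2 gene start in PM turned to 0.83 points with libraries centred and ranged from -0.646 to 0.169 points with one library left out. Over the same omissions, the gene start in Sham ranged from -0.216 to 0.819 points for Mmp1a, from -0.0012 to 0.222 points for Adamts7 and from -0.0807 to 0.208 points for Mmp17. The Adamts2 window named for PM with OVA ranged from -0.195 to 0.739 points in Sham, and the Adamtsl5 window from -0.171 to 1.18 points in PM. With one library left out, adjusted p in PM crossed 0.05 for gene start windows of Mmp12 (0.0153 to 0.0978), Adamts5 (0.0234 to 0.0885), Adamts8 (0.00335 to 0.0620), Mmp14 (0.00861 to 0.0675), Mmp2 (0.0411 to 0.189), Mmp1a and Adamts1. Depth is unknown, so windows near 0% rest on the spread between libraries alone. The gene named for a window is that of the table, and 52 members overlap another gene.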

Other observations

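The intronic Adamts13 window at chr2:26998814-27001155, singled out after its values were seen, varied more between libraries of a group than any other member, with a within-group SD of 13.4 points (the 99.98th percentile of all tested windows, median over members 1.48). Adamts13 encodes the protease that cleaves von Willebrand factor. Its lowest, median and highest values were 50.2%, 75.7% and 97.8% in Sham, 72.2%, 89.4% and 97.9% in Sham-OVA, 67.7%, 88.0% and 98.8% in PM and 66.1%, 85.1% and 96.8% in PM-OVA, so that the groups overlapped widely. No comparison of this window passed the test (adjusted p = 0.622 and 0.870 for OVA in Sham and PM). The windows on its sides had SDs of 5.39 and 4.15 points, at percentiles of 99.33 and 98.73.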
